A study of Oryctolagus cuniculus with 24 samples.

Results

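The protein genes of the cytosolic ribosome were followed in 3 culture conditions of keratocytes from rabbit cornea, the cells that lay down and maintain its stroma. Members were taken by gene name: every gene of the count table named RPL or RPS with a number, RPLP0 to RPLP2, RPSA, RACK1 or FAU, without the S6 kinases. This gave 76 of the 23428 genes in the table. Of these, 68 carry the name of a standard subunit: 39 of the large subunit, 2 of the P stalk (RPLP0 and RPLP1) and 27 of the small subunit. The other 8 are paralogs or named for a ribosomal protein only (RPL3L, RPL7L1, RPL10L, RPL22L1, RPL26L1, RPL36AL, RPS27L and RPS19BP1), and they are given apart from the standard subunits.

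All cells were first-passage primary keratocytes plated on glass coated with collagen and kept for 6 days, and total RNA was sequenced in bulk, with 8 libraries per condition. Serum-free cells stayed in defined medium throughout. TGF-β1 cells received the same medium with 5 ng/mL TGF-β1 from day 1, the arm the submitters call myofibroblast. FBS cells received DMEM with 10% fetal bovine serum from day 3, the arm they call fibroblast, so that serum, base medium and starting day changed together there and cannot be told apart. No label says whether the libraries of a condition came from separate animals or cultures, so p-values measure only the spread between these libraries.

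A ribosome is built from these proteins and ribosomal RNA in fixed proportion. Their mRNAs are among the most abundant of a cell and begin with a 5′ terminal oligopyrimidine (TOP) tract, through which mTORC1 and LARP1 control their translation. Several members also act off the ribosome: RPL5 and RPL11, with 5S rRNA, can bind the ubiquitin ligase MDM2. Levels of mRNA, which are what was measured here, do not show how much of each protein was made.

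The libraries held 15410285 to 22528261 counts. Keratocyte markers (KERA, LUM, DCN, ALDH1A1, CD34) summed to medians of 43600 CPM (counts relative to library size, with sizes scaled by TMM) in serum-free cells, 14700 with TGF-β1 and 2730 with FBS. Both myofibroblast markers in the table, ACTA2 and TAGLN, rose in both treatments. Summed epithelial markers stayed under 0.764 CPM, with KRT12 at 0 in every library, and immune markers under 2.34 CPM. Endothelial markers summed to a median of 324 CPM in serum-free cells, nearly all of it KDR, against 76.3 and 16.2 in the treated cells, and Schwann cell or melanocyte markers to 12, 3.93 and 2.03. Libraries numbered 5 to 8 in the labels (the first set) and 9 to 12 (the second set) stood apart from each other within each condition. Replicates 1 to 4 of each condition are numbers 5 to 8, and replicates 5 to 8 are numbers 9 to 12. FBS replicates 5 and 6 (numbers 9 and 10, in the second set) also stood apart, and values are given with and without them.

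The members took 1.69% ± 0.253 of all counts in serum-free libraries (SD, n = 8), 1.89% ± 0.373 with TGF-β1 and 4.82% ± 1.07 with FBS. By library the share ran from 1.29% to 2.02% in serum-free cells (median 1.60%). It lay between 1.40% and 2.31% in TGF-β1 cells (1.91%) and between 3.80% and 6.72% in FBS cells (4.49%). Every FBS library lay above every other library, whereas TGF-β1 and serum-free libraries overlapped over most of their range. Within the second set, however, every TGF-β1 library (2.10% to 2.31%) lay above every serum-free library (1.56% to 2.02%). In the first set the 2 conditions overlapped, at 1.40% to 1.71% and 1.29% to 1.62%. The FBS share was 2.86 times the serum-free share, 2.71 times in the first set and 2.98 times in the second, and it was 4.27% without FBS replicates 5 and 6. For TGF-β1 the ratio was 1.12, with 1.03 and 1.19 in the sets. A share of counts also moves with what the other genes take: type I collagen alone took 12.1% of counts in serum-free cells, 10.5% with TGF-β1 and 1.09% with FBS. With the 10 most abundant genes of each library left out of the total, the FBS share was 2.34 times the serum-free share. The TGF-β1 share was then 1.075 times the serum-free share, 0.956 times in the first set and 1.18 times in the second, so its direction turned in the first set.

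**Figure D1:**
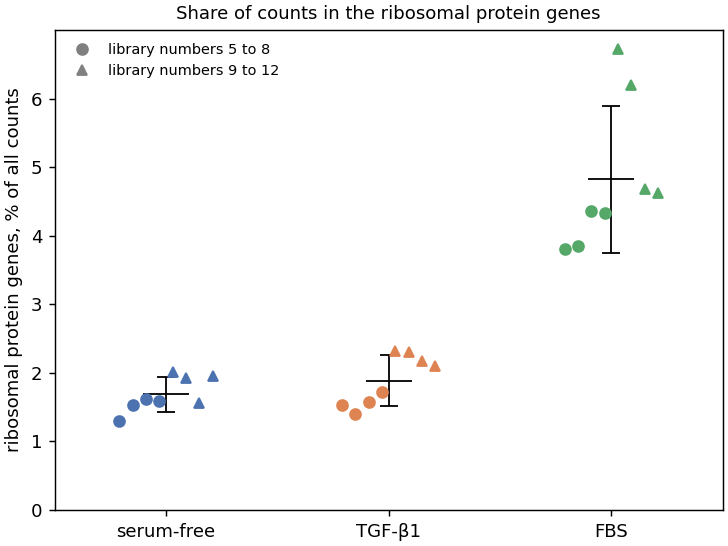
Percent of all counts in the 76 ribosomal protein genes (vertical axis) in each of the 24 libraries by condition (horizontal axis); circles are library numbers 5 to 8, triangles 9 to 12, and the black dash and bar are the mean and SD of 8 libraries. FBS libraries sit between 3.80% and 6.72%, above all others, and within TGF-β1 every triangle lies above every circle.

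Almost all ribosomal protein genes were higher in FBS cells. Against serum-free cells, 69 of the 74 members tested were higher with FBS and 1 was lower (edgeR quasi-likelihood test, adjusted p under 0.05 over 13308 genes). Over all genes tested 39.5% were higher and 40.5% lower, against 93.2% and 1.35% of the members. The median log2 fold change of the 67 standard subunits tested was 1.38, or 2.60-fold, where the median of all genes was -0.04. The 2 members not tested, RPL10L (a paralog of RPL10 known from the testis) and a second RPL39 gene on a small scaffold, had no count in any library, which allows up to 3 counts per library. No member was therefore left out for being low in 1 condition only. In 52 members every FBS library lay above every serum-free library, 70.3% of the members against 27.2% of all genes.

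In the large subunit 37 of 38 tested genes were higher, with a median of 1.46. RPL5, which carries 5S rRNA to the subunit, had 136 to 179 CPM (median 169) in serum-free libraries and 586 to 788 CPM (640) with FBS. The groups lay far apart, and the rise was 2.01 ± 0.0799 (log2 fold change ± SE, adjusted p = 5.61e-18). Its partner RPL11 went from 177 to 272 CPM (median 223) to 536 to 1020 CPM (642), again without overlap, a rise of 1.65 ± 0.135 (adjusted p = 1.86e-11). RPL39, a small protein near the end of the exit tunnel, showed the largest rise of any standard subunit at its gene on the X chromosome (68525263 to 68527920 in the table's coordinates). It had 9.27 to 40.9 CPM (median 26.7) without serum and 84.8 to 187 CPM (119) with it, a rise of 2.21 ± 0.252 (adjusted p = 9.57e-09). RPL27 rose by 1.97 ± 0.249 (adjusted p = 6.17e-08), from a range of 61.0 to 154 CPM (median 106) to one of 255 to 697 CPM (391).

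Abundant core proteins of the large subunit had smaller estimates than RPL5, a difference that was not tested. RPL4, which lines the exit tunnel, had 720 to 1044 CPM (median 866) in serum-free cells and 1887 to 2898 CPM (2130) with FBS, a rise of 1.34 ± 0.135 (adjusted p = 9.92e-10). RPL3, beside the peptidyl transferase centre, had 449 to 737 CPM (median 595) and 1056 to 2280 CPM (1379), a rise of 1.28 ± 0.164 (adjusted p = 7.54e-08). RPL10, one of the last proteins to join the subunit, had 577 to 833 CPM (median 728) and 1076 to 1574 CPM (1166), a rise of 0.76 ± 0.0911 (adjusted p = 2.47e-08). None of the 3 overlapped between the conditions. The only large-subunit gene tested that did not pass was a second RPL18 gene on an unplaced scaffold, listed at 0.244 to 1.18 CPM in serum-free and 0.299 to 1.03 CPM in FBS libraries.

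The P stalk, the arm that recruits elongation factors, had both genes higher, with a median of 0.73. RPLP0 had 836 to 1304 CPM (median 1089) in serum-free and 1421 to 2451 CPM (1696) in FBS libraries, with no overlap, a rise of 0.69 ± 0.112 (adjusted p = 3.65e-06). RPLP1 had 511 to 1073 CPM (median 888) and 997 to 2329 CPM (1345), with some overlap, a rise of 0.76 ± 0.182 (adjusted p = 0.000443). Whether the stalk's change differs from that of the other subunits was not tested.

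In the small subunit 24 of 27 genes were higher with FBS, with a median of 1.28. RPS15A rose most, by 1.80 ± 0.17 (adjusted p = 2.8e-10), from a range of 87.3 to 167 CPM (median 142) to one of 348 to 701 CPM (442). RACK1, a scaffold on the head of the subunit that binds signalling proteins, had 397 to 489 CPM (median 437) and 1186 to 1686 CPM (1300), with no overlap, a rise of 1.62 ± 0.0855 (adjusted p = 1.75e-15). RPS6, the substrate of the S6 kinases, had 69.5 to 127 CPM (median 106) and 191 to 317 CPM (241), a rise of 1.24 ± 0.144 (adjusted p = 1.4e-08). FAU, which encodes RPS30 fused to a ubiquitin-like protein, had 34.2 to 118 CPM (median 79.1) and 83.5 to 455 CPM (184), which overlapped, and it rose by 1.48 ± 0.282 (adjusted p = 3.24e-05).

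The 3 small-subunit genes that did not pass were RPSA, RPS27 and RPS21. RPSA, also known as the precursor of a laminin receptor, had 295 to 472 CPM (median 333) in serum-free and 291 to 677 CPM (423) in FBS libraries, a difference of 0.29 ± 0.168 (adjusted p = 0.114). RPS27, a zinc-finger protein, had 59.5 to 219 CPM (median 118) and 72.8 to 337 CPM (151), a difference of 0.46 ± 0.409 (adjusted p = 0.303). RPS21 had 30.0 to 127 CPM (median 67.2) and 36.0 to 238 CPM (98.1), a difference of 0.72 ± 0.438 (adjusted p = 0.134). All 3 overlapped widely over all libraries and within the first set. Within the second set every FBS library lay above every serum-free library in all 3, for RPS27 only just, at 219.7 against 218.6 CPM. With the replicate number as a block they passed, at 0.25 (adjusted p = 0.00757), 0.33 (0.00599) and 0.40 (0.042). RPSA also passed without serum-free replicate 5 (0.38, adjusted p = 0.0464), without FBS replicate 1 (0.37, 0.0434), and once the genes with its Swiss-Prot entry were added (0.38, 0.00104).

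Among the paralogs, 6 of the 7 tested were higher with FBS and RPL3L was lower. RPL22L1, a paralog of the RNA-binding RPL22, had the largest rise of all members, from 11.7 to 17.7 CPM (median 14.9) to 61.5 to 113 CPM (77.6), which is 2.49 ± 0.123 (adjusted p = 4.99e-16). RPL22 itself went from 6.06 to 26.3 CPM (median 10.7) to 13.6 to 57.1 CPM (30.2), a rise of 1.47 ± 0.341 (adjusted p = 0.000332). RPL3L, a paralog of RPL3 known from striated muscle, had 1.25 to 2.82 CPM (median 1.75) in serum-free and 0.103 to 0.727 CPM (0.263) in FBS libraries, and it fell by 2.497 ± 0.314 (adjusted p = 5.62e-08) on 281 and 59 counts in all. It was the only member with every FBS library below every serum-free library (1.35%, against 25.7% of all genes). RPL26L1 (1.59 ± 0.0884, adjusted p = 5.84e-15) and RPL7L1 (1.38 ± 0.102, adjusted p = 1.97e-12) rose without overlap. RPS19BP1, which binds RPS19 and is no subunit, rose by 1.18 ± 0.245 (adjusted p = 9.88e-05).

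Several things moved with serum beside these genes. The mitotic markers MKI67, TOP2A, CDK1 and CCNB1 summed to 693 to 1320 CPM in FBS libraries (median 1050), against 2.19 to 46.4 (13.4) in serum-free and 4.55 to 15.5 (7.1) in TGF-β1 libraries. Their part in the result was not tested, and in bulk RNA more cells of a kind and more mRNA per cell cannot be told apart. Without FBS replicates 5 and 6, 66 members were higher and the median was 1.15, and the short small-subunit genes RPS26, RPS28 and RPS29 no longer passed, at 0.67, 0.46 and 0.52 (adjusted p = 0.126, 0.22 and 0.174).

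**Figure D2:**
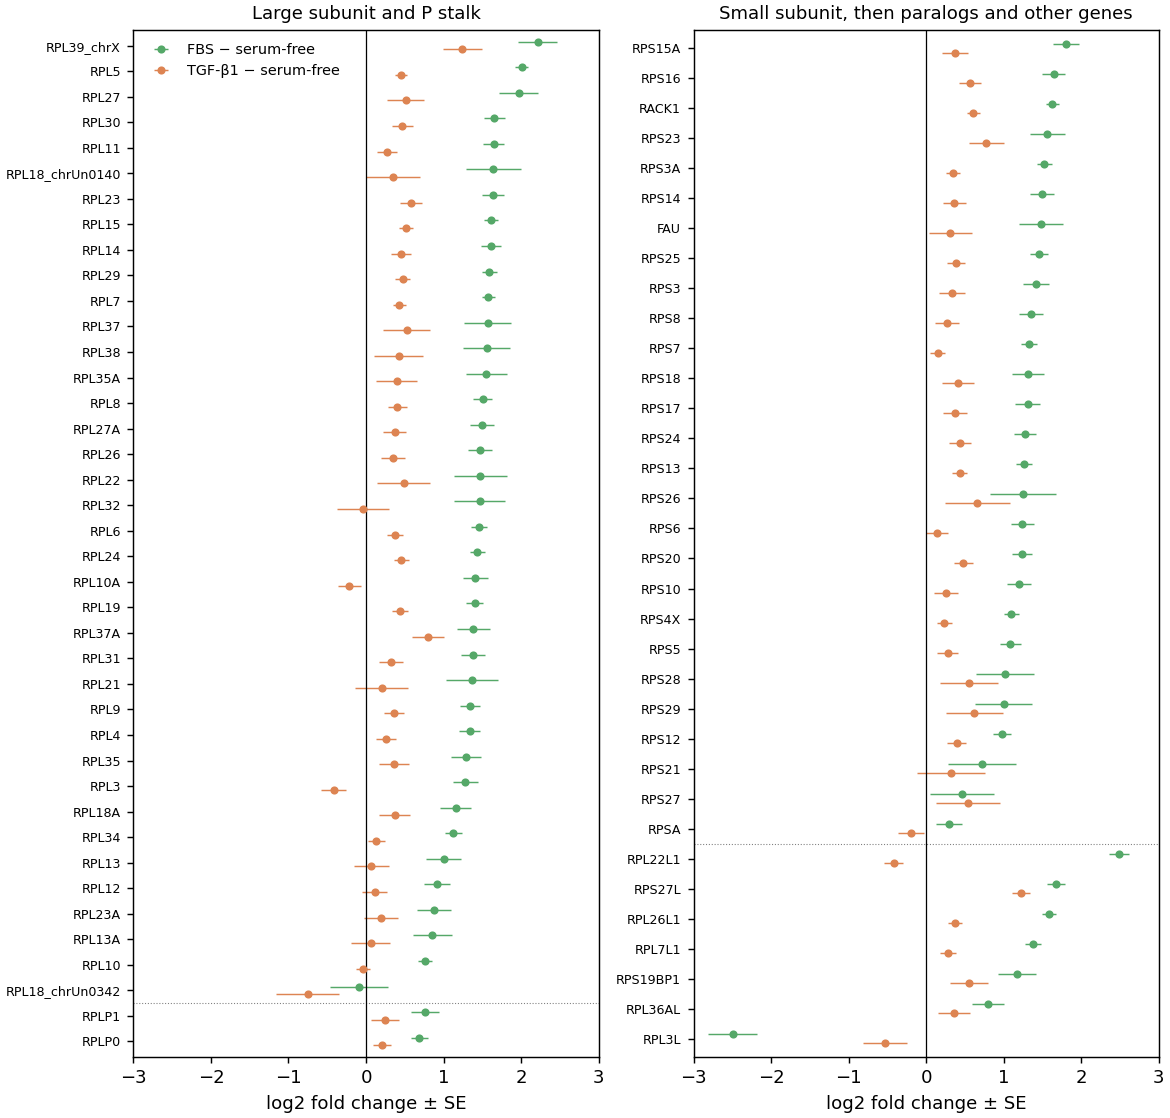
Log2 fold change against serum-free cells (horizontal axis, bars are SE) of the 74 members tested, for FBS (green) and TGF-β1 (orange); genes are ordered by the FBS change within large subunit, P stalk, small subunit and paralogs, with dotted lines between classes. Green points lie to the right of 0 in 72 of 74 members, and orange points cluster nearer 0, at a median of 0.37 for the standard subunits.

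With TGF-β1 differences from serum-free cells were small and mostly upward. Against serum-free cells 32 of 74 members were higher (43.2%, against 31.2% of all genes) and 2 were lower (2.7%, against 33.1%). The standard subunits had a median of 0.37, or 1.29-fold, beside -0.03 for all genes, and 66 of the 74 members had an estimate above 0. In 8 members every TGF-β1 library lay above every serum-free library (10.8%, against 17.3% of all genes), and in none did every one lie below (16.5% of all genes). By class, 16 of 38 large-subunit, 12 of 27 small-subunit, none of the 2 P stalk and 4 of 7 paralog genes were higher. The number of calls depended on how the sets were handled: 53 were higher and 4 lower with the replicate block, and 50 and 4 with the set as a covariate. Of all 13308 genes, 4626 were higher and 4759 lower with the block, and 4597 and 4776 with the covariate. Without either these were 4155 and 4408. The number of members called also depended on the scaling, with 19 higher and 3 lower under total library sizes in place of TMM, where all genes gave 3215 and 5368.

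The largest rises were those of RPL39 and RPS27L. RPL39 on the X chromosome had 36.2 to 97.6 CPM (median 62.1) with TGF-β1, overlapping the serum-free range, a rise of 1.24 ± 0.246 (adjusted p = 8.93e-05). RPS27L, a paralog of RPS27, had 45.8 to 54.99 CPM (median 50.8) in serum-free and 93.6 to 149 CPM (114) in TGF-β1 libraries, with no overlap, a rise of 1.22 ± 0.112 (adjusted p = 4.27e-10). RPS27 itself had 74.9 to 298 CPM (median 180) with TGF-β1, a difference of 0.54 ± 0.409 (adjusted p = 0.255, and 0.00151 with the replicate block). With FBS, RPS27L had 124 to 233 CPM (median 149), a rise of 1.67 ± 0.113 (adjusted p = 3.46e-13).

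RPL37A (0.80 ± 0.21, adjusted p = 0.00172), RPS23, at the decoding centre (0.78 ± 0.222, adjusted p = 0.00354), RACK1 (0.61 ± 0.0837, adjusted p = 5.4e-07) and RPL23, which can also bind MDM2 (0.57 ± 0.142, adjusted p = 0.00096), were the next largest rises called. RACK1 had 593 to 765 CPM (median 668) with TGF-β1, above all serum-free libraries, and RPL23 went from 139 to 290 CPM (median 216) to 258 to 382 CPM (338). RPL5 had 197 to 247 CPM (median 226), also clear of the serum-free range, a rise of 0.45 ± 0.0773 (adjusted p = 1.58e-05). The other members without overlap were RPL15, RPL24, RPL29, RPS13 and RPL26L1. Of these RPL15, RPL24, RPL29 and RPS13 were named after their values were seen. Their rises ran from 0.43 for RPS13 (adjusted p = 0.000582) to 0.51 for RPL15 (adjusted p = 1.81e-05), and the ranges of RPL26L1 only just parted, at 30.5 CPM.

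RPL22L1 and RPL3 went the other way. RPL22L1 had 8.33 to 13.3 CPM (median 10.8) with TGF-β1, overlapping serum-free cells, and fell by 0.42 ± 0.122 (adjusted p = 0.00391), to which the first set gave -0.60 and the second -0.24. In the second set alone it did not pass (adjusted p = 0.209). RPL3 had 349 to 600 CPM (median 449) and fell by 0.42 ± 0.162 (adjusted p = 0.0275). This call was lost without serum-free replicate 5, 6 or 8 or without TGF-β1 replicate 1, 2, 3 or 4, one at a time, with adjusted p from 0.0513 to 0.0609. With the replicate block the adjusted p was 1.6e-05. Within each set every TGF-β1 library lay below every serum-free library in RPL3. The ranges were 349 to 382 against 449 to 562 CPM in the first set and 516 to 600 against 627 to 737 CPM in the second. RPL10A, of the L1 stalk that handles outgoing tRNA, had 178 to 319 CPM (median 251) in serum-free and 155 to 278 CPM (220) in TGF-β1 libraries, a difference of -0.21 ± 0.154 (adjusted p = 0.23, and 0.0191 with the block). RPSA differed by -0.19 ± 0.168 (adjusted p = 0.326, and 0.03 with the block). So RPL22L1 and RPL3 were called lower with TGF-β1 and higher with FBS.

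Many well-known subunits did not pass with TGF-β1. RPL10 had 606 to 792 CPM (median 700), a difference of -0.04 ± 0.0906 (adjusted p = 0.73), and RPS6 had 72.8 to 153 CPM (115), a difference of 0.14 ± 0.142 (adjusted p = 0.41). RPLP0 had 1071 to 1452 CPM (median 1275), a difference of 0.20 ± 0.112 (adjusted p = 0.111). Estimates for RPL11 (0.27), RPL4 (0.26), RPS15A (0.37) and RPL27 (0.51) were above 0 at adjusted p of 0.0779, 0.0907, 0.0533 and 0.0665, and all 4 passed with the replicate block. RPS19BP1 passed narrowly (0.56 ± 0.245, adjusted p = 0.0498) and no longer did without any of 15 libraries taken singly, with adjusted p of at most 0.0999.

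Between the treatments, 66 members were lower with TGF-β1 than with FBS (89.2%, against 36.4% of all genes) and 1, RPL3L, was higher (36.9% of all genes were). The standard subunits had a median of -1.02 beside 0.01 for all genes. In 44 members no TGF-β1 library reached the lowest FBS library (59.5%, against 23.8% of all genes), and in none did the reverse hold (22.4% of all genes). RPL22L1 differed most, by -2.91 ± 0.126 (adjusted p = 5.58e-17), followed by RPL3 at -1.698 ± 0.166 (adjusted p = 7.73e-10), RPL10A at -1.63 ± 0.158 (adjusted p = 6.89e-10) and RPL5 at -1.56 ± 0.0788 (adjusted p = 1.26e-15). RPS27L was among the least different, at -0.45 ± 0.11 (adjusted p = 0.000727), with -0.09 in the first set and -0.81 in the second (adjusted p of the difference = 0.00219), and it did not pass with the length trend removed (-0.18, adjusted p = 0.174). The 7 members that did not pass were RPL36AL, RPS21, RPS26, RPS27, RPS28, RPS29 and the second RPL18 gene. RPL36AL (-0.43, adjusted p = 0.0566) and RPS26 (-0.59, 0.205) passed with the replicate block. Without FBS replicates 5 and 6, 60 members were lower: RPLP1, RPSA, RPL37A, RPL23A, RPL13A, RPL22 and RPS19BP1 no longer passed, while RPL36AL did (-0.53, adjusted p = 0.0321). This comparison and the one of TGF-β1 with serum-free cells share the TGF-β1 libraries, and the one of FBS with serum-free cells shares its samples with both.

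Scaling by total library size in place of TMM moved the median of all genes to -0.17 for TGF-β1 against serum-free cells, 0.21 for FBS against serum-free cells and -0.39 for TGF-β1 against FBS. In the comparison of TGF-β1 with serum-free cells, 3215 of all genes were then higher and 5368 lower, in place of 4155 and 4408. In that of TGF-β1 with FBS the split was 3131 and 6819, in place of 4917 and 4840. Relative to these medians the standard subunits differed by 0.40, 1.41 and -1.02, and relative to the TMM medians by 0.40, 1.42 and -1.02. When the trend of expression on gene length was removed in each library, their medians were 0.20, 1.00 and -0.80.

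**Figure D3:**
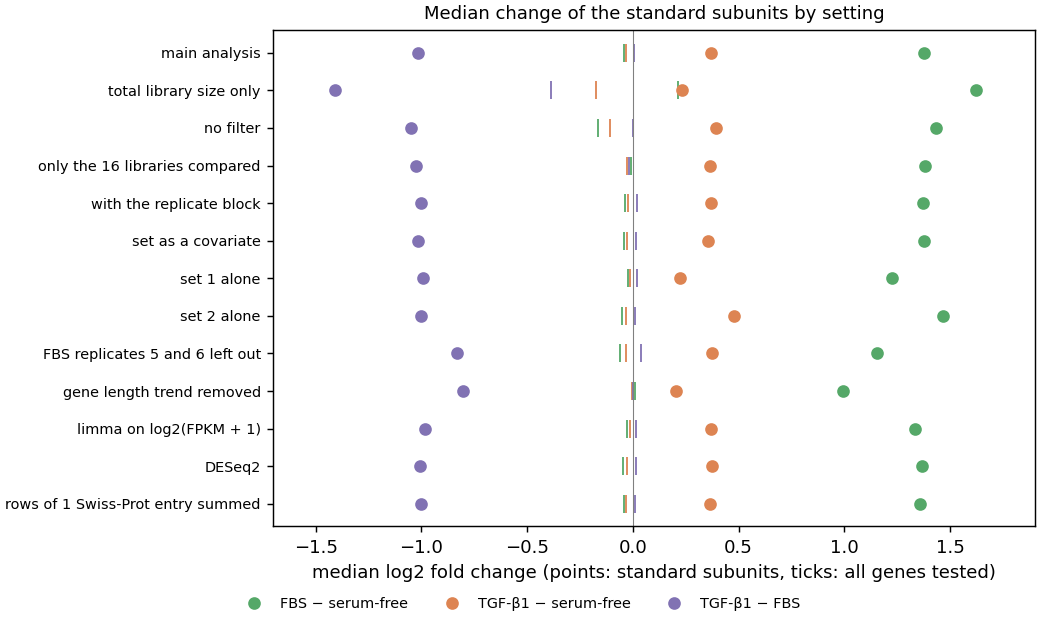
Median log2 fold change of the standard subunits (points) and of all genes tested (ticks of the same colour) under each way of processing (vertical axis) for the 3 comparisons. Green points for FBS stay between 1.00 and 1.62, orange points for TGF-β1 between 0.20 and 0.48, and ticks leave 0 by over 0.1 with total library sizes and, against serum-free cells, without the filter on low counts.

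The sets of library numbers differed in these genes. The standard subunits were higher in the second set, with a median ratio of 1.18 in serum-free cells, 1.40 with TGF-β1 and 1.42 with FBS, where all genes had ratios of 1.01, 0.986 and 1.00. Every library of the second set lay above every library of the first in 19, 53 and 34 of the 67 standard subunits, and the reverse held in 2, 1 and 1. No such count was taken over all genes, so whether these counts are unusual was not tested. RPS27 was among the subunits that split cleanly: with TGF-β1 it had 74.9 to 82.5 CPM in the first set and 278 to 298 CPM in the second, and in serum-free cells 59.5 to 84.2 and 153 to 219. The reverse held for RPL32 with TGF-β1 and with FBS, and with FBS it had 52.0 to 79.9 CPM in the first set and 20.3 to 33.2 CPM in the second. In serum-free cells the reverse held for RPL10, at 729 to 833 CPM in the first set and 577 to 727 CPM in the second. It also held there for RPS12, at 421 to 519 and 265 to 373 CPM.

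Whether treatment effects differed between the sets was tested for each member. For TGF-β1 against serum-free cells the difference passed in 7 (9.46%, near the 10.3% of all genes): RPL4, RPL7, RPL10, RPL26, RPLP0, RPS3A and RPS7, all with the larger estimate in the second set. Over all genes, the second set had the larger (more positive) estimate in 603 of the 1368 that passed. RPLP0 was -0.09 in the first set and 0.49 in the second (adjusted p of the difference = 0.0079), and RPL10 was -0.28 and 0.20 (0.0135). For FBS against serum-free cells the difference passed in 14 (18.9%, near the 22.4% of all genes), 13 of them larger in the second set. Over all genes, 1606 of the 2977 that passed were larger in the second set. RPS12 rose by 0.65 and 1.34 (adjusted p of the difference = 0.00346), and RPS21 changed by -0.26 and 1.01 (0.000126), whereas RPL7L1 was larger in the first set, at 1.55 and 1.16 (0.00189). For TGF-β1 against FBS it passed in 4 (5.41%, against 23.9%). The median of the standard subunits was 1.22 and 1.46 in the sets for FBS, and 0.22 and 0.47 for TGF-β1.

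**Figure D4:**
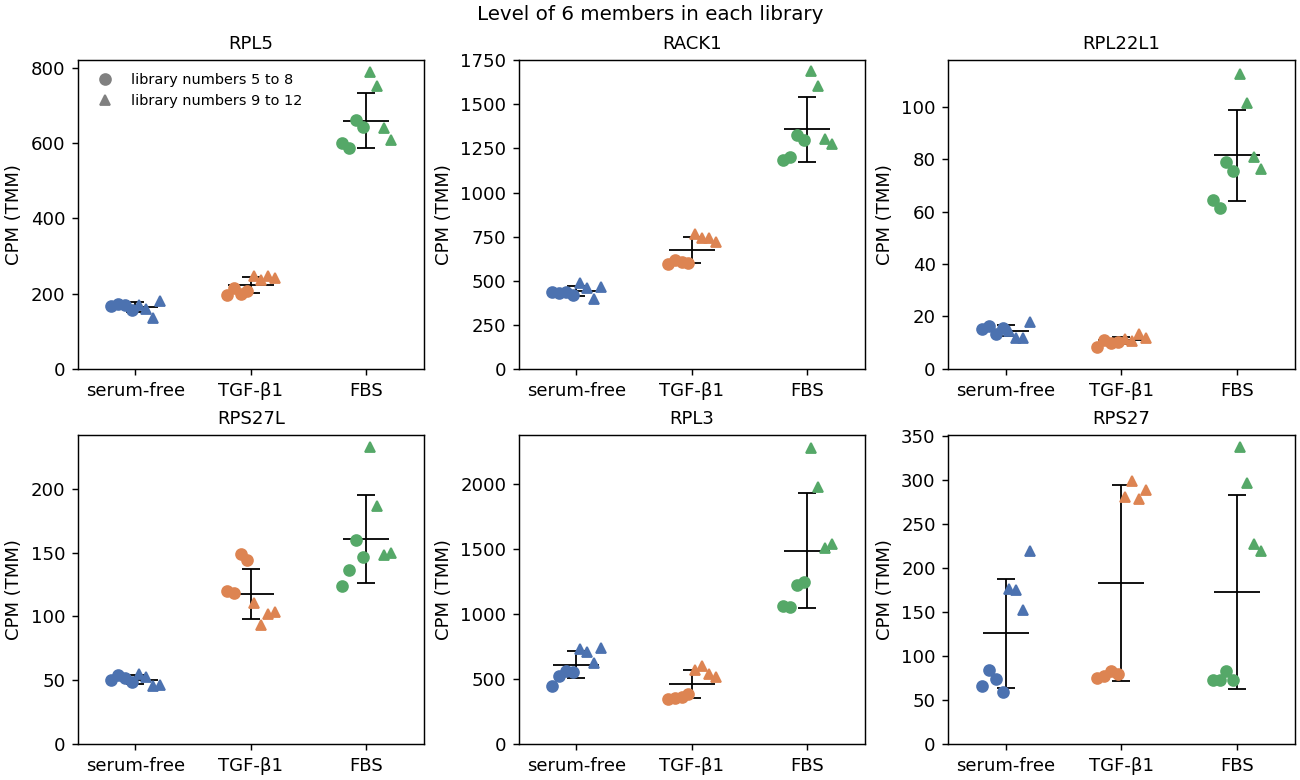
Level in CPM (vertical axes, from 0) of 6 members in each of the 24 libraries by condition; circles are library numbers 5 to 8, triangles 9 to 12, and black dashes and bars are the mean and SD of 8 libraries. RPL5 and RACK1 separate all 3 conditions, RPL22L1 is high with FBS only, RPS27L is raised in both treatments, and RPS27 splits by library number within every condition, while its conditions overlap over all libraries.

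Within a condition the standard subunits moved together. The spread between libraries of a condition (SD of log2 CPM) had a median of 0.325 over the standard subunits, beside 0.298 for all genes, and ran from 0.139 for RPL5 and 0.151 for RACK1 to 0.92 for RPS27 and RPS26 and 0.994 for RPS21. Deviations from the condition means had a median Pearson correlation of 0.777 over the 2211 pairs of standard subunits. Both the spread and these deviations were taken across the sets and so include the set difference. The part of the sets in the correlation was not tested, and no such correlation was taken over all genes. Spread fell with the length of the gene in the table, with a Spearman correlation of -0.52 over 67 genes, all measured in the same 24 libraries. These genes are short, with a median of 656 bases (238 to 1491) beside 2598 for all genes tested. Over all genes, the correlation of a library's deviation from its condition mean with gene length ran from -0.528 to 0.433 among FBS libraries, from -0.39 to 0.251 among serum-free and from -0.256 to 0.242 among TGF-β1 libraries. What part length had in the set difference was not tested.

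**Figure D5:**
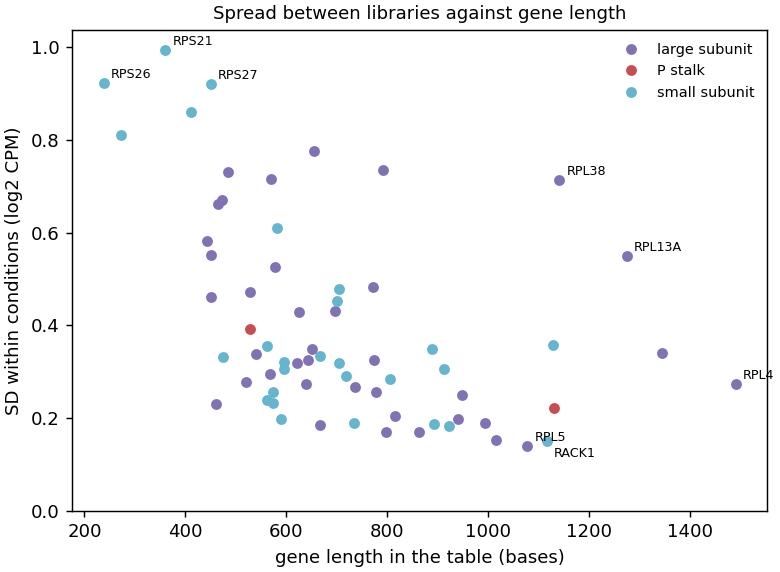
SD of log2 CPM between libraries of a condition (vertical axis, from 0) against gene length in bases (horizontal axis) for the 67 standard subunits tested, coloured by subunit class. RPS21, RPS26, RPS27, RPS28 and RPS29, none longer than 450 bases, have the 5 largest SDs, from 0.81 to 0.994, and RPL5 and RACK1, over 1000 bases long, have 0.139 and 0.151.

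Per length of gene, the order of the subunits changed little between conditions. On the deposited FPKM scale (counts scaled by gene length and library size) RPLP1 had the highest level, at 1633 ± 345 in serum-free, 1942 ± 494 in TGF-β1 and 2767 ± 851 in FBS libraries (SD, n = 8 each). RPLP0 (979 ± 136 in serum-free cells), RPS12 (740 ± 167), RPL10 (835 ± 96.9) and RPL4 (594 ± 69.9) were the next by mean over all libraries. In serum-free cells RPL10 and RPS12 did not differ beyond their spread. The median level of the standard subunits was 329 FPKM in serum-free, 420 in TGF-β1 and 867 in FBS cells. Ranks of the mean FPKM correlated at 0.93 to 0.96 (Spearman, 67 genes) between pairs of conditions. RPS12 itself had 265 to 519 CPM (median 397) in serum-free and 502 to 580 CPM (542) in TGF-β1 libraries, and rose by 0.39 ± 0.117 (adjusted p = 0.0051), though not in the first set alone (0.18, adjusted p = 0.075) or with the length trend removed (0.17, adjusted p = 0.304).

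Ribosomal protein genes have many processed copies in mammalian genomes, which bears on single genes here. The table holds 145 further genes described as cytosolic ribosomal proteins but listed mostly by number, and 40 members share their Swiss-Prot entry with at least 1 of them, called copies here although how alike their sequences are was not tested. For RPL32 the other copies held 92.7% of the summed CPM, for RPL36AL 91.2%, for RPS26 78.7%, for RPL31 61.1%, for RPL34 53.9%, for RPL39 53.2% and for RPSA 50.1%, so their values are uncertain. The RPL38 gene and the second RPL18 gene carry no Swiss-Prot description, and several subunits, such as RPL7A, RPL28, RPS2 and RPS19, are listed only by number and are not members. With the copies added, RPL39 rose by 0.97 with TGF-β1 (adjusted p = 1.216e-06) and by 1.81 with FBS (adjusted p = 7.696e-12). Its FBS rise was then no longer the largest of the standard subunits: RPL5 and RPL27 rose by 2.01 and 1.98 with their copies added. RPL32 differed by -0.04 ± 0.331 with TGF-β1 (adjusted p = 0.929), and with its copies added it rose by 0.34 (adjusted p = 0.0177). RPL5 kept its values, at 0.44 and 2.01, though 31.5% of its summed CPM lay in another copy. Of the 145 genes, 91 were tested. With TGF-β1, 17 were higher (18.7%, below the 31.2% of all genes) and 3 lower (3.3%, below the 33.1% of all genes). Their estimates were above 0 in 76 of the 91, with a median of 0.31 beside -0.03 for all genes. With FBS, 79 were higher (86.8%, against 39.5%) and 1 lower (1.1%, against 40.5%).

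Genes that act with these proteins were counted from lists of translation genes. Of 14 other genes with TOP mRNAs, such as elongation factors, all were higher with FBS and 10 with TGF-β1, where 1 was lower. NAP1L1, a histone chaperone, rose by 2.45 with FBS and 0.97 with TGF-β1, and EIF3E, a subunit of an initiation factor, by 1.81 and 1.06, while HNRNPA1, an RNA-binding protein, rose by 1.41 with FBS and fell by 0.34 with TGF-β1. Of 29 initiation factors 25 were higher and 1 lower with FBS, and 20 and 3 with TGF-β1. Among all genes tested, 39.5% were higher and 40.5% lower with FBS, and 31.2% and 33.1% with TGF-β1. EIF4A1, the helicase of cap-dependent initiation, had 230 ± 18.9 CPM in serum-free, 428 ± 41.6 in TGF-β1 and 1331 ± 104 in FBS libraries (SD, n = 8), and EIF4G2 had 1966 ± 354, 3506 ± 357 and 2142 ± 349, highest with TGF-β1. EIF4A2, a paralog of EIF4A1, fell by 0.42 with TGF-β1, and its FBS difference of -0.27 (adjusted p = 0.0129) was -0.01 with total library size (adjusted p = 0.953).

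Of 20 genes tested that control ribosomal protein translation through mTORC1, 8 were higher and 8 lower with FBS, a split near that of all genes (39.5% and 40.5%). With TGF-β1, 11 were higher and 4 lower, beside 31.2% and 33.1% of all genes. PDCD4, an inhibitor of EIF4A that S6 kinase marks for breakdown, fell from 130 ± 19.4 CPM in serum-free cells to 23.5 ± 2.71 with TGF-β1 and 3.76 ± 0.68 with FBS (SD, n = 8). On the log2 scale it fell by 2.46 with TGF-β1, and with FBS it fell by 5.11. EIF4EBP1, an inhibitor of cap binding, rose by 0.83 with TGF-β1 and 2.05 with FBS. SESN2, which restrains mTORC1 under stress, rose by 2.80 with TGF-β1 and 1.57 with FBS, and DDIT4, which acts likewise, rose by 2.17 with TGF-β1. For RPS6KB1, the S6 kinase gene, differences were 0.08 (adjusted p = 0.579) and 0.20 (adjusted p = 0.143).

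Of 14 ribosomal protein chaperones and assembly factors, 13 were higher and 1 lower with FBS, and 8 and 2 with TGF-β1. This list includes RPS19BP1, a member above. GRWD1, which escorts RPL3, rose by 3.03 with FBS and 0.79 with TGF-β1, and NMD3, the export adaptor of the large subunit, rose by 1.45 with FBS and fell by 0.38 with TGF-β1, though not in the second set alone (-0.18, adjusted p = 0.162). These counts stand beside 39.5% of all genes higher and 40.5% lower with FBS, and 31.2% and 33.1% with TGF-β1.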

How the data were processed

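Total RNA of 24 libraries was sequenced. The authors deposited raw read counts per gene, whole numbers per the file headers and values, and FPKM values, which are counts divided by gene length and a scaled library size. The genome build, annotation, aligner and counting tool were not given in the sources used here, so coordinates and gene lengths are the table's own and whether counting used strand is unknown.

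The test on counts was run in edgeR 4.0.16 (R 4.3.3): filterByExpr (13308 of 23428 genes), TMM library sizes, all 24 libraries with 1 coefficient per condition, quasi-likelihood F-tests and Benjamini-Hochberg adjustment over all genes tested, with calls at an adjusted p under 0.05. SE is the log2 fold change over the root of F. CPM use TMM sizes. The set difference is the set-by-condition term of a further fit to the same genes and library sizes, with 1 coefficient per condition and set. Means are given as mean ± SD of 8 libraries.

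Members and lists were chosen with earlier results of these data known. Named genes are, per comparison, the 6 members with the largest rise and fall at 5 CPM or more, up to 3 not called, the 5 highest by FPKM, fixed genes such as RACK1 and all paralogs, and up to 3 genes in each direction per list; other names were chosen after their values were seen. RPLP2 was not found in the table under that name. Of 31 initiation factors listed 29 were in the table, of 23 mTORC1 genes 20, of 21 TOP genes 14 and of 18 chaperones 14. Counts over a list of ribosome quality control genes are not reported here.

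Libraries share numbers across conditions, and residuals of the same number had correlations of 0.177 to 0.362 for TGF-β1 and serum-free cells. For FBS and serum-free cells these were 0.115 to 0.429, and for both treatments 0.103 to 0.332. Since all exceeded 0.1, the number also served as a block. Libraries of equal number also share a set, and the part of the sets in these correlations was not tested. Alternatives were total library size, DESeq2 1.42.0, no filter, limma 3.58.1 on log2(FPKM + 1), only the libraries compared, the set as a covariate or alone, a gene length trend removed by lowess, FBS replicates 5 and 6 left out, and each library left out. Adding genes of 1 Swiss-Prot entry into 1 was chosen after seeing the data. No genome or sequence was used here.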

Additional observations from a re-analysis of the deposited data

Results flagged for a closer look

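Each of the 74 members tested, and their summed share of counts, was checked in each condition for a library far from the other 7, which gave 225 checks. A library was singled out where its gap to the next exceeded 0.526 of the range of the 8 libraries (Dixon's 95% value), which chance alone gives in about 1 in 20 groups, and 5 values met this. In serum-free replicate 8, RPL21 had 53.7 CPM, with the next library at 25.3. In the same library RPL22 had 26.3 CPM, with the next at 13.0. In serum-free replicate 7, RPL24 had 125 CPM, below the next lowest at 164. RPS4X had 420 CPM in that library, with the next lowest at 504. In TGF-β1 replicate 1, RPL24 had 209 CPM, below the next lowest at 230.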

How the results depend on the processing

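Directions of the medians of the standard subunits held under all 36 alternatives. For TGF-β1 against serum-free cells the calls moved: members higher were 19 with total library size, 53 with the replicate block, 50 with the set as a covariate and 51 in the second set alone, in place of 32. Over all genes these settings gave 3215, 4626, 4597 and 3910 higher, in place of 4155. Members lower were 4 with the replicate block, the set as a covariate or the length trend removed, and 5 in the first set alone, in place of 2. Over all genes these settings gave 4759, 4776, 4327 and 4444 lower, in place of 4408. Leaving out 1 library gave 26 (without serum-free replicate 1 or 7 or TGF-β1 replicate 5, 6, 7 or 8) to 40 (without TGF-β1 replicate 2) higher and 1 to 3 lower, with medians of 0.32 to 0.43. For FBS the counts higher were 69 to 70 and for TGF-β1 against FBS the counts lower 65 to 67. With the length trend removed the FBS median was 1.00, and with total library size the median of TGF-β1 against FBS was -1.41. With the 10 most abundant genes left out of the total the share of counts was 2.22% in serum-free and 2.39% in TGF-β1 libraries. The cause of these moves was not tested.

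Of 74 members, 25 kept their side of the threshold in all alternatives for TGF-β1 against serum-free cells, 67 for FBS and 60 for TGF-β1 against FBS. The replicate block added 23, 3 and 2 member calls, ended none, and left the other calls of members as they were. Reversed values were, for TGF-β1 against FBS, where the estimates of these genes were above 0, EIF4EBP2 (-0.31), TSC2 (-0.17), TSR2 (-0.077) and HBS1L (-0.25) with total library size and EIF4EBP2 (-0.19) with the length trend removed. For FBS against serum-free cells EIF4G3 was 0.16 with the length trend removed, and for TGF-β1 RPL32 was 0.34 with its copies added. RPL3L, under 3 CPM in every library, rests on few counts.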

Other observations

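The protein genes of the mitochondrial ribosome, encoded in the nucleus under other names (MRPL and MRPS), were read from the same table for comparison, a choice made after its names were seen. Of 70 tested, 68 were higher with FBS and none lower (97.1%, against 39.5% of all genes higher), with a median log2 fold change of 1.42. With TGF-β1, 43 were higher and 3 lower (61.4% and 4.29%, against 31.2% and 33.1% of all genes), with a median of 0.39. Between the treatments 60 were lower with TGF-β1 than with FBS (85.7%, against 36.4% of all genes) and none higher (36.9% of all genes were), with a median of -0.99. The medians by set were 0.46 in the first and 0.34 in the second for TGF-β1, an order opposite to that of the cytosolic standard subunits (0.22 and 0.47), although the difference between the 2 families was not tested.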
